A study of Mus musculus with 6 samples.

Results

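The 10 genes described here carry out MHC class I antigen presentation: H2-K1, H2-D1, B2m, Tap1, Tap2, Tapbp, Psmb8, Psmb9, Nlrc5 and Erap1. They were chosen by symbol and matched to Ensembl gene identifiers, and all 10 of the 55421 genes in the count table were found, were present in the authors' normalized table of 16552 genes and passed the expression filter that left 14469 genes for testing. RNA-seq was performed on tumor-associated macrophages (TAMs), gated as CD11b+F4/80+ cells and, by the study's methods, as live CD45+ Ly6G- cells, sorted on day 15 from implanted tumors that the labels call M17 and the methods call MC17-51 fibrosarcoma. There were 3 libraries from Pdcd1f/f mice, whose Pdcd1 gene (encoding PD-1) is floxed and intact, and 3 libraries from Pdcd1f/fLysMcre mice, which carry the same floxed alleles together with Cre recombinase driven by the lysozyme M promoter, so that recombination is aimed at myeloid cells as a whole and not at macrophages alone. All mice bore tumors and were 8 to 12 weeks old at implantation, and both sexes were used, by the study's methods. The labels do not say whether a library came from 1 mouse or from pooled mice. The p-values below therefore measure the spread between these libraries, which may in part be technical. The comparison asks whether transcripts of the class I pathway differed between TAMs with and without the myeloid deletion of PD-1.

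Class I molecules display peptides from inside the cell to CD8+ T cells. The immunoproteasome, in which Psmb8 and Psmb9 replace constitutive catalytic subunits, cuts proteins into peptides. The Tap1 and Tap2 transporter carries these into the endoplasmic reticulum, Erap1 trims them there, and tapasin (Tapbp) holds the transporter next to an empty heavy chain, H2-K1 or H2-D1, that has paired with its light chain B2m. Nlrc5 is a transactivator of the class I heavy chains, B2m, Tap1 and Psmb9, and acts at a composite promoter element, known as the S-X-Y module, which holds a site related to the cyclic AMP response element (the X2 box) and an inverted CCAAT box (the Y box). Interferon-gamma signaling, through Ifngr1, Jak2 and Irf1, is a main inducer of the pathway, to which macrophages respond strongly.

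The upstream sequences of 4 promoters are shown because they hold the letters of both boxes. They were taken from RefSeq on the GRCm38.p6 build, which had a window for 8 of the 10 members and none for Nlrc5 and Tap2. Capitals mark every TGACG (X2-like) and CCAAT (Y-like) match on either strand. H2-K1 is shown for chr17:34000348-34000597 on the minus strand, H2-D1 for chr17:35262844-35263093 on the plus strand, B2m for chr2:122147437-122147686 on the plus strand, and the divergent promoter of Psmb9 and Tap1 for chr17:34187331-34187555, the 225 bases between the 2 RefSeq starts, read along the Tap1 strand.
H2-K1: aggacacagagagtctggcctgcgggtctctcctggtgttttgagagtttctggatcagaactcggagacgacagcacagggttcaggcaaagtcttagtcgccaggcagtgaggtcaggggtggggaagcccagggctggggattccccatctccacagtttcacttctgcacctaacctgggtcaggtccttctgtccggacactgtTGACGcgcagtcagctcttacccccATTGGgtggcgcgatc
H2-D1: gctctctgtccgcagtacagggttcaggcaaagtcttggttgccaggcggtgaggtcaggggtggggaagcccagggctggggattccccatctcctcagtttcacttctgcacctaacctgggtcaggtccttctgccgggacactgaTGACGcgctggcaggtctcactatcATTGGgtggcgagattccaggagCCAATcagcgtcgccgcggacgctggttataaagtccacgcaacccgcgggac
B2m: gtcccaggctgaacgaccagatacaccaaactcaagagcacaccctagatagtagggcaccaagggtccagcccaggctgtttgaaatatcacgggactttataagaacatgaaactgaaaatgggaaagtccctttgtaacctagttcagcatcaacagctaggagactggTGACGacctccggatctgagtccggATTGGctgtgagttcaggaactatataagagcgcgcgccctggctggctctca
Psmb9-Tap1: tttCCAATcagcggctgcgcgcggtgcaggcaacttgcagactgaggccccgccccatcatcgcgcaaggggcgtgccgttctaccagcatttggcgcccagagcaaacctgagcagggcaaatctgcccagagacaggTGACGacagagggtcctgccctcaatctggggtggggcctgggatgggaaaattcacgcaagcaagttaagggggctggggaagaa

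In H2-K1, H2-D1 and B2m a TGACG was followed, after 20 further bases, by ATTGG, the CCAAT box read on the other strand. This spaced pair was noticed after the sequences had been read, and was found in 3 of the 8 member windows and in 30 of 32851 promoter windows of 250 bases on the build (0.0913%). H2-K1 and H2-D1 are counted separately although their upstream sequences share long stretches (56.1% of aligned columns identical), so their matches are not independent. The first base of the TGACG lay at -41 of the H2-K1 start used here (-55 of a second RefSeq start of this gene), at -101 of the H2-D1 start and at -78 of the B2m start. Taken alone, TGACG was present in 5 of the 8 member windows (H2-K1, H2-D1, B2m, Tap1 and Psmb9) and in 17.8% of all windows, and CCAAT in 6 of the 8 and in 33.8% of all windows. In the sequence between Psmb9 and Tap1 the letters do not have this order, since the CCAAT lies upstream of the TGACG on the Tap1 strand and is not inverted. Psmb9 and Tap1 are counted separately here although they share 1 TGACG and 1 CCAAT in the sequence between them. The interferon-stimulated response element core, GAAA and GAAA parted by any 2 bases, was found on either strand in the B2m window, at -139, and in 2.98% of all windows. A single form of the NF-kB site, GGG and TTTCC parted by any 2 bases, was found in the B2m window, at -126, and in 1.41% of all windows, and its other forms were not searched. The gamma-activated site TTCNNNGAA was found in the Psmb8 window, at -97, and in 7.02% of all windows. A match of letters is a description of the sequence and was not measured as a bound site.

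Library totals ranged from 41833823 to 51417209 counts. Raw counts of Pdcd1 itself were 10, 12 and 15 without Cre and 7, 16 and 11 with Cre, too few to check the deletion. Lyz2, the locus that carries the Cre insertion, had 189889 to 242873 counts against 418 to 503, in the direction of the labels. The intended deletion of Pdcd1, the presence of Cre and the fall of Lyz2 go together in these libraries and cannot be told apart. All 8 macrophage markers on the list used were detected, with a summed normalized count of 244567 to 266331 in Pdcd1f/f and 218424 to 221334 in Pdcd1f/fLysMcre libraries. Of these, 4 (Adgre1, Csf1r and Mertk among them) were lower in Pdcd1f/fLysMcre TAMs past the threshold of an adjusted p of 0.05 in edgeR and none was higher. Over all genes tested, 3.01% were called lower, which is the share to set beside each count of lower markers in this paragraph. The fall of the macrophage markers moves with the class I changes below, and its part in them was not tested. Of the markers of other cells, Ly6g, Cd8a, Cd8b1, Eomes, Cd79a, Pax5, Xcr1 and Siglech had at most 3 counts in every library, whereas others were detected, such as Cd4 with 503 to 652 and Kdr with 668 to 722 normalized counts over the 6 libraries. The T cell list summed to 622 to 697 normalized counts in Pdcd1f/f and 549 to 663 in Pdcd1f/fLysMcre libraries, and the endothelium list to 932 to 961 and 918 to 981. The dendritic cell list summed to 241 to 346 and 303 to 382, the B cell list to 169 to 209 and 120 to 149, and the NK cell list to 26.3 to 48.0 and 24.6 to 29.5. The neutrophil list summed to 6583 to 6768 normalized counts in Pdcd1f/f and 5500 to 5632 in Pdcd1f/fLysMcre libraries (2 of 6 tested markers lower), and the fibrosarcoma and stroma list to 3200 to 3445 and 3056 to 3374 (1 of 7 tested lower). No marker of T cells, NK cells, B cells, dendritic cells or endothelium that could be tested passed the threshold in edgeR, although 2 dendritic cell markers and 1 B cell marker had an unadjusted p below 0.05 and DESeq2 called the last lower. The 4 Y-linked genes measured summed to 1545 to 1914 normalized counts in Pdcd1f/f and 6267 to 7233 in Pdcd1f/fLysMcre libraries. Xist had 17318 to 26511 against 8530 to 13137 normalized counts (log2 difference -0.99, edgeR adjusted p = 0.00980). Both Xist and Y-linked transcripts were thus detected in every library, as pools of mice of both sexes would give. Whether the libraries of a genotype came from separate pools is not stated, so they cannot be taken as independent mice. Sex composition and genotype cannot be told apart here.

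B2m and both heavy chains were among the most abundant transcripts of these TAMs, and the other members ranked lower. By mean normalized count (the raw count divided by the authors' DESeq2 size factor of the library), B2m ranked 14, H2-D1 43 and H2-K1 54 among the 16552 genes of the normalized table, whereas the lowest member, Psmb9, ranked 4929. Per kilobase of the principal transcript, the level of B2m in Pdcd1f/f TAMs was 158407 ± 9177 (SD, n = 3), that of H2-K1 was 45510 ± 5040 and that of H2-D1 was 42525 ± 5846. The 2 heavy chains overlapped each other and both lay below B2m, by 3.48 and 3.73 times. Next came tapasin with 4132 ± 387 and Psmb8 with 4030 ± 545 normalized counts per kilobase, which overlapped, then Tap1 with 2148 ± 229 and Psmb9 with 1607 ± 178. Erap1, with 1027 ± 61.9, and Tap2, with 917 ± 157, overlapped, and the transactivator Nlrc5 was lowest with 439 ± 10.7. The order of means was the same in Pdcd1f/fLysMcre TAMs, where Psmb9 (1239 ± 77.2) and Erap1 (1112 ± 81.3) overlapped, and Erap1 and Tap2 (797 ± 90.5) did not. Counted per kilobase of all annotated exons instead, H2-D1 stood above H2-K1, and Erap1 and Tap2 above Psmb9, so the order within these neighbours rests on the length used. The folds between B2m and the heavy chains rest on it too, since the level of H2-K1 per kilobase of all exons was 25079 and that of H2-D1 34660, beside an unchanged 158407 for B2m.

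**Figure D1:**
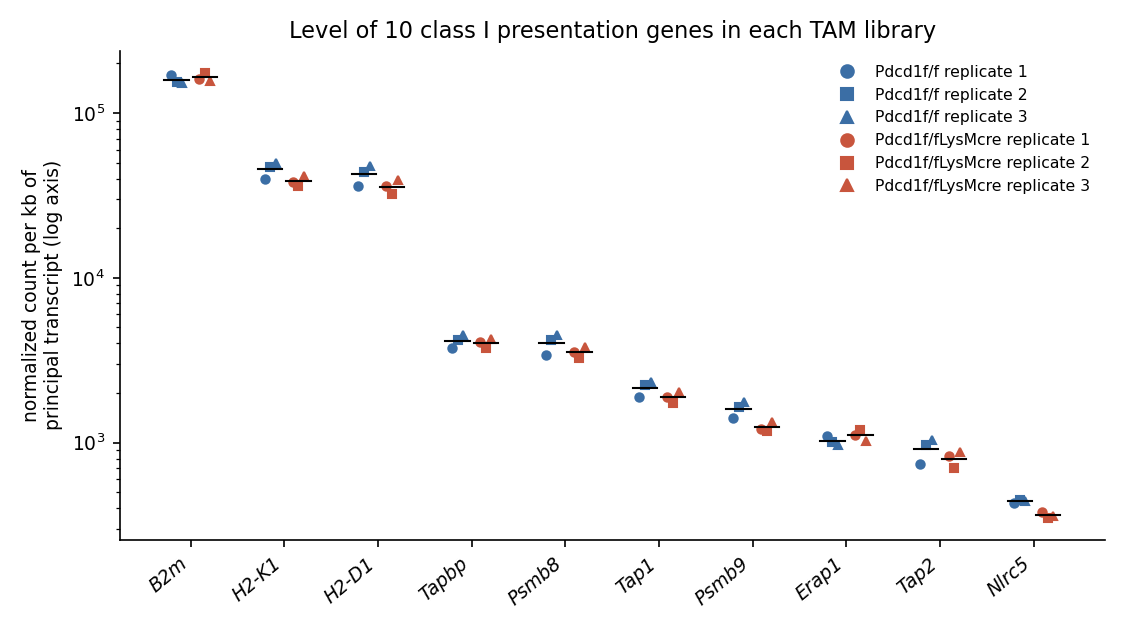
Normalized count per kilobase of the principal transcript (log axis) of the 10 members in each library, with circles, squares and triangles for replicates 1, 2 and 3, blue for Pdcd1f/f, red for Pdcd1f/fLysMcre and black bars for group means. B2m stands highest at 158407 in Pdcd1f/f libraries, the 2 heavy chains follow, and Nlrc5 is lowest at 439.

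Of the 10 members, 2 were lower in Pdcd1f/fLysMcre than in Pdcd1f/f TAMs past the threshold and none was higher, whereas 3.01% of the 14469 genes tested were called lower and 5.43% were called in either direction. The 2 were the transactivator Nlrc5 and the immunoproteasome subunit Psmb9. Transcripts of both heavy chains, of the transporter subunits and of Psmb8 had lower means by 12.1% to 15.9% without passing the test, and those of B2m and Erap1 had slightly higher means. The median log2 fold change over the 10 members was -0.19, beside -0.0026 over all genes tested, and with the correction for GC content and length described below it was -0.10, beside 0.01 over all genes. In bulk RNA of sorted cells, fewer cells of a type and less RNA per cell cannot be told apart.

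Nlrc5, the class I transactivator (GRCm38, chr8:94434356-94527272, plus strand), had 3243, 3404 and 3342 normalized counts in Pdcd1f/f and 2881, 2660 and 2700 in Pdcd1f/fLysMcre libraries. The genotypes did not overlap, and the lowest Pdcd1f/f library stood above the highest Pdcd1f/fLysMcre library. Nlrc5 fell by 0.28 on the log2 scale (SE 0.06, adjusted p = 0.0350 in edgeR), a level 0.826 times that of the control. It was past the threshold in all 9 alternative fits over the 6 libraries, with an adjusted p between 0.00298 and 0.0434. With 1 library left out, it kept its direction but passed the test only without Pdcd1f/f replicate 1 (edgeR adjusted p = 0.00859), since the adjusted p was 0.199 without Pdcd1f/f replicate 2, 0.115 without Pdcd1f/f replicate 3, and 0.0961, 0.106 and 0.0875 without Pdcd1f/fLysMcre replicates 1, 2 and 3.

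Psmb9 (LMP2, chr17:34181987-34187764, minus strand), the inducible subunit that takes the place of Psmb6, had 1907, 2235 and 2377 normalized counts in Pdcd1f/f and 1640, 1594 and 1793 in Pdcd1f/fLysMcre libraries. Every Pdcd1f/fLysMcre library lay below every Pdcd1f/f library, the nearest being Pdcd1f/f replicate 1. Psmb9 fell by 0.37 on the log2 scale (SE 0.09, adjusted p = 0.0441 in edgeR), a level 0.773 times that of the control. It was likewise past the threshold in all 9 alternative fits over the 6 libraries, with an adjusted p between 0.00107 and 0.0444, and among the fits without 1 library only in that without Pdcd1f/f replicate 1 (edgeR adjusted p = 0.00190). Without Pdcd1f/f replicates 2 and 3 the adjusted p of Psmb9 was 0.207 and 0.166, and without Pdcd1f/fLysMcre replicates 1, 2 and 3 it was 0.170, 0.147 and 0.0520. The first exons of Psmb9 and Tap1 overlap head to head on opposite strands over 212 bases in the annotation, and how the authors' counting used strand is not stated in the sources used here.

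No other member separated the genotypes, so that 2 of the 10 members did not overlap with Pdcd1f/fLysMcre lower, beside 13.1% of all genes tested. Psmb8 (LMP7, chr17:34197721-34201454), the other inducible subunit, had 5568, 6837 and 7278 normalized counts in Pdcd1f/f and 5804, 5278 and 6224 in Pdcd1f/fLysMcre libraries. Pdcd1f/f replicate 1 lay within the range of the Pdcd1f/fLysMcre libraries, and the log2 difference of -0.18 (SE 0.10) had an adjusted p of 0.292 in edgeR.

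The transporter subunits followed the same pattern. Tap1 (chr17:34187553-34197225) had 5574, 6605 and 6851 normalized counts in Pdcd1f/f and 5550, 5112 and 6008 in Pdcd1f/fLysMcre libraries, a log2 difference of -0.19 (SE 0.09, edgeR adjusted p = 0.229). Tap2 (chr17:34203527-34216321) had 2550, 3340 and 3583 against 2836, 2397 and 3000, a log2 difference of -0.20 (SE 0.12, edgeR adjusted p = 0.355). In both, Pdcd1f/f replicates 2 and 3 lay above all Pdcd1f/fLysMcre libraries and Pdcd1f/f replicate 1 lay among them. The tapasin gene Tapbp (chr17:33915899-33929292) had 10808, 12069 and 13046 normalized counts in Pdcd1f/f and 11754, 10830 and 12372 in Pdcd1f/fLysMcre libraries. These ranges overlapped nearly in full, the log2 difference was -0.04 (95% interval -0.22 to 0.14, edgeR adjusted p = 0.818), and it turned to 0.10 with the correction for GC content described below. The trimming peptidase Erap1 (chr13:74639568-74693201) had 6176, 5718 and 5490 against 6311, 6716 and 5800 normalized counts. Its groups overlapped, with a log2 difference of 0.12 (95% interval -0.05 to 0.28, edgeR adjusted p = 0.359).

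The heavy chain H2-K1 (chr17:33996017-34000347, minus strand) had 64598, 76056 and 80390 normalized counts in Pdcd1f/f and 61603, 58138 and 67032 in Pdcd1f/fLysMcre libraries. The log2 difference was -0.24 (SE 0.09, 95% interval -0.44 to -0.05), and its adjusted p in edgeR was 0.133. H2-D1 (chr17:35262730-35267499, plus strand) had 75860, 92438 and 99864 against 75811, 67711 and 82106, a log2 difference of -0.25 (SE 0.10, edgeR adjusted p = 0.177). In each heavy chain the groups overlapped through Pdcd1f/f replicate 1, which lay below Pdcd1f/fLysMcre replicate 3. The light chain B2m (chr2:122147686-122153083, plus strand) had 145299, 132472 and 130919 normalized counts in Pdcd1f/f and 138971, 150415 and 134864 in Pdcd1f/fLysMcre libraries. Its groups overlapped and the log2 difference was 0.06 (95% interval -0.09 to 0.21, edgeR adjusted p = 0.649), or -0.0025 with the correction for GC content.

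**Figure D2:**
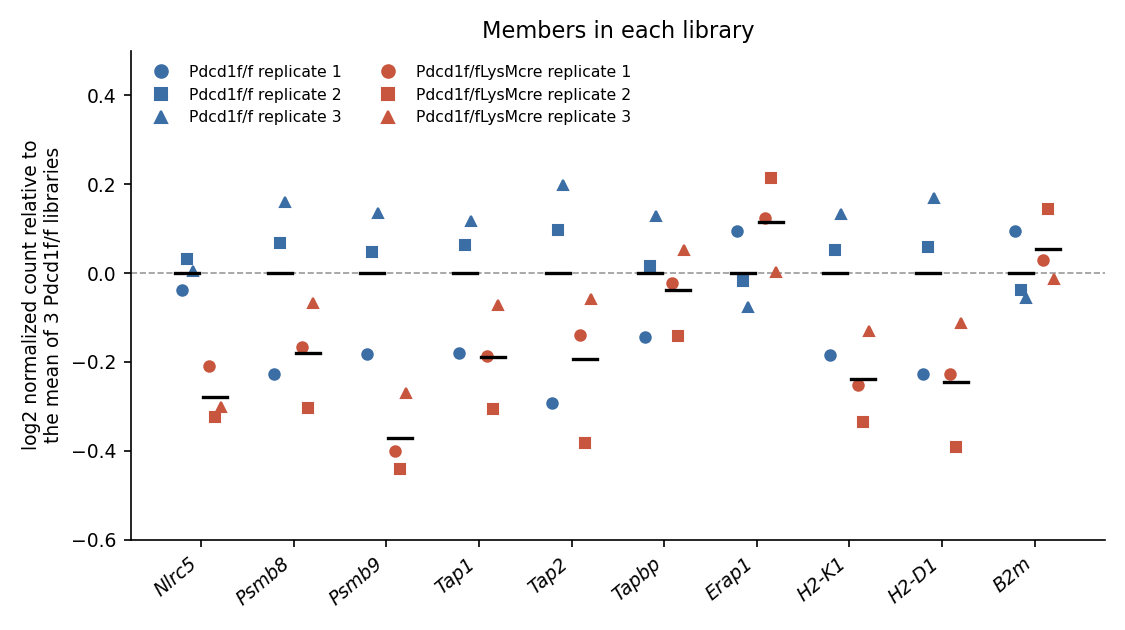
The log2 normalized count of each member in each library, relative to the mean of the 3 Pdcd1f/f libraries (dashed line), with circles, squares and triangles for replicates 1, 2 and 3, blue for Pdcd1f/f, red for Pdcd1f/fLysMcre and black bars for the group means. Nlrc5 and Psmb9 do not overlap between genotypes, and Pdcd1f/f replicate 1 and Pdcd1f/fLysMcre replicate 2 are the lowest of their genotype for 8 of the 10 genes but the highest for B2m and Erap1.

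Reads of 42 nt could not always be assigned to 1 class I heavy chain. Of all 42-base words of the principal transcript, 13.8% of those of H2-K1 and 19.3% of those of H2-D1 also occurred in another gene, most often in H2-D1 and H2-Q1 respectively, whereas Nlrc5, Psmb8, Psmb9 and B2m shared none. The treatment of multi-mapped reads is not given in the sources used here, so the counts of single heavy chains are uncertain. Because reads were sequenced in pairs, shares of single words do not measure how large this uncertainty is. When the counts of all 30 H2-K, H2-D, H2-Q, H2-T and H2-M genes in the table were added to a single feature, of which H2-K1 made up 37.6% to 38.9% and H2-D1 45.2% to 46.7% in the 6 libraries, the log2 difference was -0.25 (SE 0.09, edgeR adjusted p = 0.141). Adding H2-K1 and H2-D1 alone gave -0.24 with an adjusted p of 0.156.

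The members' calls rested on which libraries were included. Pdcd1f/f replicate 1 and Pdcd1f/fLysMcre replicate 2 were the lowest library of their genotype in 8 of the 10 members, those with a GC content of 52.5% to 57.1% (H2-K1, H2-D1, Tap1, Tap2, Tapbp, Psmb8, Psmb9 and Nlrc5), and the highest in B2m (41.2% GC) and Erap1 (41.5% GC). Over 10584 genes with a mean of at least 100 normalized counts, the deviation of a library from its group mean followed GC content with a Spearman's rho of -0.76 in Pdcd1f/f replicate 1 and -0.70 in Pdcd1f/fLysMcre replicate 2, and of 0.19 to 0.72 in the other 4 libraries, as a description across genes that share each library. The 2357 tested genes with such a mean and a GC content in the range of the 8 members had a median log2 fold change of -0.10, 74.2% of them were below 0 and 4.92% were called lower, and the 8 members had a median of -0.22. Whether GC content accounts for the members' differences was not tested.

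With Pdcd1f/f replicate 1 left out, 7 of the 10 members were lower past the threshold (H2-K1, H2-D1, Tap1, Tap2, Psmb8, Psmb9 and Nlrc5) and none was higher, beside 11.5% of 14754 genes called lower and 21.6% called in either direction. H2-K1 then had a log2 difference of -0.34 (adjusted p = 0.00673) and H2-D1 of -0.36 (adjusted p = 0.00827) in edgeR. Leaving out each of the other 5 libraries left none of the 10 past the threshold in edgeR, although 2 members in 4 of these fits, and 6 in the fit without Pdcd1f/fLysMcre replicate 3, had an unadjusted p below 0.05. Without 1 library, Tap2 ranged from -0.34 to -0.10 and Psmb8 from -0.30 to -0.10, each lowest without Pdcd1f/f replicate 1 and highest without Pdcd1f/f replicate 3.

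With a correction for GC content and gene length in each library, fitted over all 6 libraries, H2-K1 (log2 difference -0.14, adjusted p = 0.0202), Psmb9 (-0.28, adjusted p = 0.00109) and Nlrc5 (-0.22, adjusted p = 0.00348) were lower past the threshold in edgeR, beside 8.13% of all genes tested that were called lower and 18.1% called in either direction. With this correction, each of the 6 fits without 1 library called Psmb9 and Nlrc5, and 2 of them called H2-K1. The share of all genes called in each of these 6 fits is not given here, so these calls cannot be set against it. The fit without Pdcd1f/f replicate 1 also called H2-D1 (-0.16, adjusted p = 0.00396) and Psmb8 (-0.20, adjusted p = 0.00437) lower and Tapbp higher (0.12, adjusted p = 0.0319) in edgeR, beside 10.3% of 14754 genes called lower, 12.3% called higher and 22.6% called in either direction. Over all 6 libraries the corrected differences of the other members did not pass the threshold and were closer to 0 than the uncorrected ones, except in Tapbp. They were -0.12 in H2-D1 (adjusted p = 0.0776), -0.12 in Psmb8 (0.237), -0.08 in Tap1 (0.211), -0.06 in Tap2 (0.512) and 0.10 in Tapbp (0.0674), and -0.0025 and 0.0025 in B2m and Erap1. DESeq2 called Psmb9 and Nlrc5 lower, beside 6.73% of 12505 genes called lower and 12.8% called in either direction. The replicate number as a block gave the same 2 members, beside 3.92% lower and 7.1% in either direction. Without a filter on low counts, H2-K1 and H2-D1 were lower as well, beside 4.01% lower and 7.32% in either direction of 26637 genes. With Pdcd1f/f replicate 1 and Pdcd1f/fLysMcre replicate 2 both left out, 7 members were lower, beside 13.6% lower and 26.2% in either direction.

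**Figure D3:**
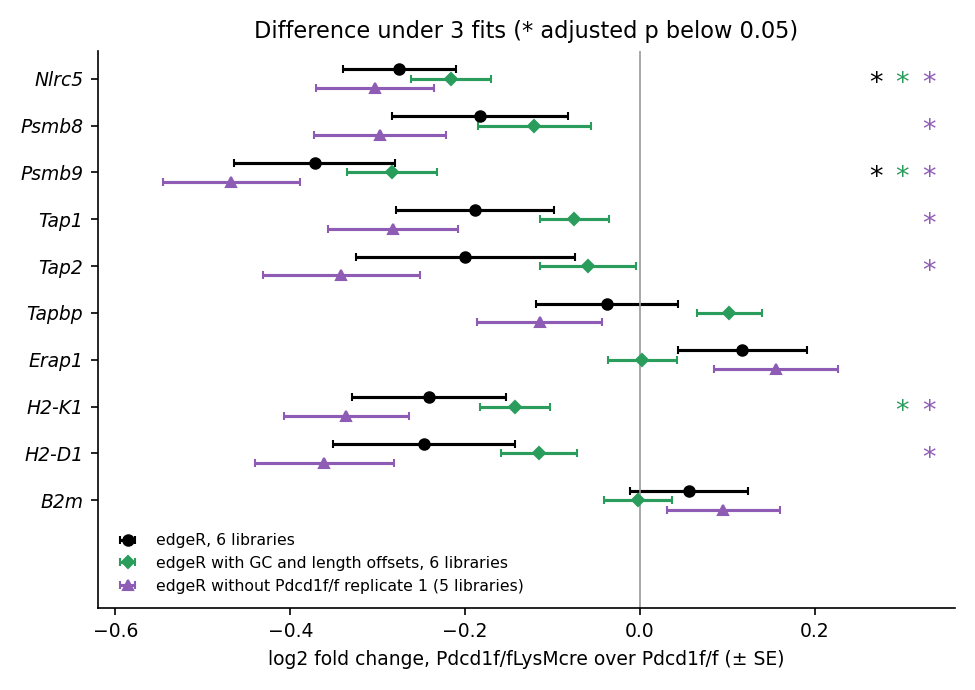
The log2 fold change of Pdcd1f/fLysMcre over Pdcd1f/f (± SE) of each member in edgeR with all 6 libraries (black circles), corrected for GC content and length (green diamonds) and without Pdcd1f/f replicate 1 (purple triangles), with a star of the same color where the adjusted p was below 0.05. Nlrc5 and Psmb9 carry a star in all 3 fits, H2-K1 in 2, and B2m, Erap1 and Tapbp in none.

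Ratios within a library need no scaling between libraries, and 7 were computed, with a two-sided exact permutation test over the 6 libraries whose smallest possible p is 0.1. The ratio of inducible Psmb9 to constitutive Psmb6 was 0.331, 0.339 and 0.352 in Pdcd1f/f and 0.279, 0.302 and 0.295 in Pdcd1f/fLysMcre libraries. The genotypes did not overlap, with a log2 difference of -0.22 (exact p = 0.1, adjusted over the 7 ratios 0.35). The ratio of Psmb10, the remaining inducible subunit, to Psmb7 was 0.309, 0.389 and 0.420 against 0.264, 0.222 and 0.297, also without overlap, with a log2 difference of -0.51 (exact p = 0.1, adjusted 0.35). Psmb10 has a GC content of 56.5% and Psmb7 of 40.8%, whereas Psmb9 (54.1%) and Psmb6 (51.6%) lie closer together. The ratio of Psmb8 to Psmb5 averaged 2.91 and 2.89, and its log2 difference of -0.01 lay well within the spread between libraries (exact p = 0.5). The ratios of H2-K1 to B2m averaged 0.544 in Pdcd1f/f and 0.442 in Pdcd1f/fLysMcre libraries and those of H2-D1 to B2m 0.661 and 0.535, with overlap in both (exact p = 0.2 and 0.3). H2-K1 to H2-D1 averaged 0.826 and 0.829 (exact p = 0.8), and Tap1 to Tap2 2.03 in each genotype (exact p = 1).

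**Figure D4:**
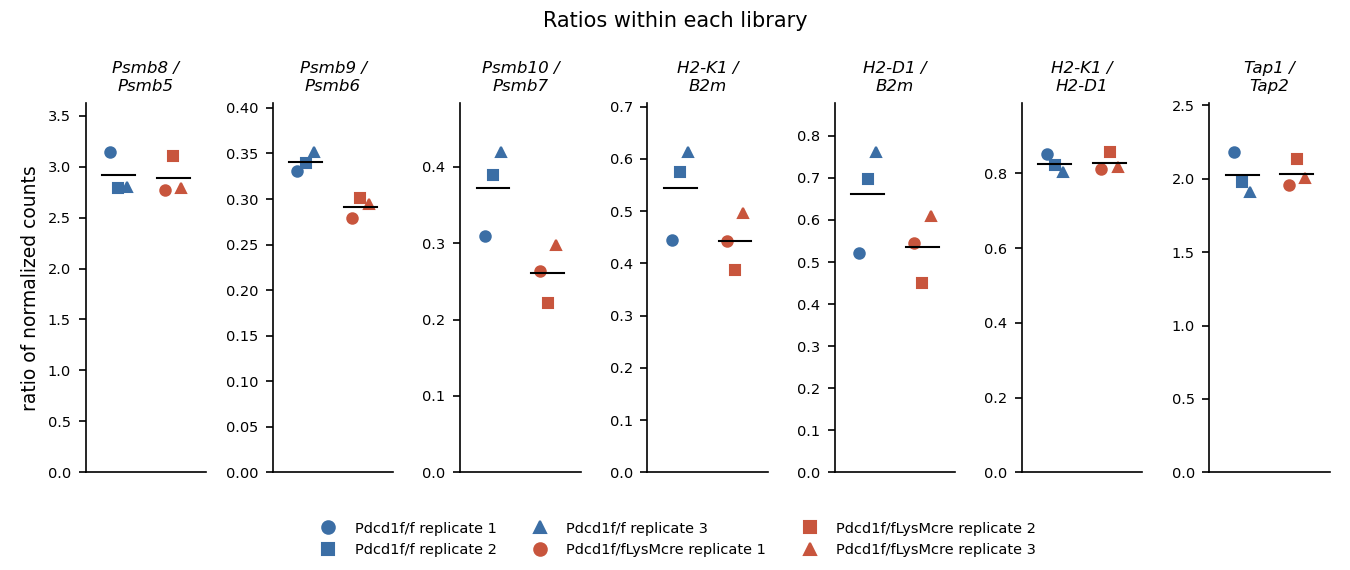
Ratio of the normalized counts of 2 genes within each library, each panel with its own axis from 0, blue for Pdcd1f/f, red for Pdcd1f/fLysMcre, circles, squares and triangles for replicates 1, 2 and 3, and black bars for group means. Psmb9 to Psmb6 and Psmb10 to Psmb7 are lower in every Pdcd1f/fLysMcre library, whereas Psmb8 to Psmb5, H2-K1 to H2-D1 and Tap1 to Tap2 overlap.

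Other genes of the pathway were followed in 6 lists of 79 genes, of which 75 were tested. In edgeR, 5 were lower and 3 higher past the threshold, beside 3.01% lower and 2.42% higher over all genes tested. Among the other class I and class I-like heavy chains, 14 of 18 were tested, 3 were lower and none was higher, with a median log2 fold change of -0.24. H2-M3, which presents formylated peptides and pairs with B2m, had 1729, 1928 and 1959 normalized counts in Pdcd1f/f and 1394, 1434 and 1490 in Pdcd1f/fLysMcre libraries, without overlap, and fell by 0.38 (SE 0.08, edgeR adjusted p = 0.0183). Fcgrt, the neonatal Fc receptor heavy chain that recycles IgG and albumin, had 4223, 5233 and 5492 against 2813, 2701 and 3090, and fell by 0.79 (SE 0.10, edgeR adjusted p = 0.00154). Hfe, a regulator of iron uptake, had 3071, 3541 and 3504 against 2194, 2094 and 2127, and fell by 0.65 (SE 0.07, edgeR adjusted p = 0.000830). Neither Fcgrt nor Hfe presents peptides, although both pair with B2m, and both were past the threshold in all 6 fits without 1 library, beside 1.36% of genes.

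The nonclassical H2-Q4 and H2-Q7 did not overlap between the genotypes but missed the threshold, with log2 differences of -0.37 (edgeR adjusted p = 0.0598) and -0.34 (adjusted p = 0.0693). With the replicate number as a block, edgeR called both lower (adjusted p = 0.0228 and 0.0263). H2-M2, at 20 to 61 normalized counts, had the most negative value of the list at -0.98 (edgeR adjusted p = 0.0693), and H2-Q10, at a mean of 17.7 and 23.7 normalized counts, the most positive at 0.42 (adjusted p = 0.478). Between 32.0% and 45.7% of the 42-base words of H2-Q4 and H2-Q7 also occur in other genes, against 1.36% for H2-M3, so the former counts are uncertain. H2-Q4, H2-Q7 and H2-M2 were called lower in DESeq2, and also in edgeR with the correction for GC content and length, with log2 differences of -0.27 (adjusted p = 0.00189), -0.29 (0.00664) and -0.97 (0.0301). DESeq2 called H2-T23 lower too (adjusted p = 0.0367), although its groups overlapped. In edgeR its log2 difference was -0.36 (adjusted p = 0.109), or -0.26 (0.0635) with the correction, past the threshold in neither.

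Among 19 regulators of class I transcription, 2 were lower and 2 higher, with a median log2 fold change of 0.02. Irf1, the interferon-induced activator of class I genes, had 2600, 2817 and 3064 normalized counts in Pdcd1f/f and 2172, 2002 and 2426 in Pdcd1f/fLysMcre libraries, without overlap, and fell by 0.36 (SE 0.09, edgeR adjusted p = 0.0446). The interferon-gamma receptor chain Ifngr1 had 12270, 11928 and 11869 against 9655, 10430 and 9582, and fell by 0.28 (SE 0.06, edgeR adjusted p = 0.0254). Jak2, a kinase of the interferon-gamma receptor complex, was higher, with 4732, 4398 and 4209 against 5308, 5395 and 5189 normalized counts, a rise of 0.25 (SE 0.06, edgeR adjusted p = 0.0484). Nfyb, a subunit of the factor that binds the CCAAT box, rose by 0.33 (SE 0.08, edgeR adjusted p = 0.0435), from 1235 ± 81.5 to 1548 ± 101 normalized counts (SD, n = 3). Rela, a subunit of NF-kB, had a log2 difference of -0.02 (edgeR adjusted p = 0.907) with overlapping groups, which turned to 0.16 (adjusted p = 0.0213) with the correction for GC content and length and was called in 2 of the 6 corrected fits without 1 library.

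Among the 7 genes of peptide loading and quality control, 1 was higher and none lower. This was Hspa5 (BiP), a chaperone of the endoplasmic reticulum, with 153342, 139000 and 133807 normalized counts in Pdcd1f/f and 169152, 194589 and 168019 in Pdcd1f/fLysMcre libraries, and it rose by 0.32 without overlap (SE 0.08, edgeR adjusted p = 0.0405). Tapbpl, a relative of tapasin, had the lowest value at -0.15 (adjusted p = 0.415).

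Over all 6 libraries, H2-M3, Irf1, Ifngr1 and Hspa5 passed in all 9 alternative fits. Jak2 missed the threshold with RLE size factors (edgeR adjusted p = 0.0512), with library size alone (0.0621) and in limma-trend (0.0559), and Nfyb with library size alone (edgeR adjusted p = 0.0517) and in limma-trend (0.0504). Most of these companion calls also rested on the choice of libraries. Among the fits without 1 library, H2-M3 and Irf1 passed without Pdcd1f/f replicate 1 and without Pdcd1f/fLysMcre replicate 3 (edgeR adjusted p = 0.0393 and 0.0342 in the latter). Ifngr1 passed without Pdcd1f/f replicate 1 and without Pdcd1f/fLysMcre replicate 2 (0.0278 in the latter), and Jak2, Nfyb and Hspa5 passed only without Pdcd1f/f replicate 1. In the remaining fits without 1 library the adjusted p ranged from 0.0613 to 0.130 for H2-M3, 0.147 to 0.185 for Irf1, 0.0735 to 0.143 for Ifngr1, 0.0900 to 0.210 for Jak2, 0.0752 to 0.227 for Nfyb and 0.0622 to 0.184 for Hspa5. With the correction for GC content and length, each of the 6 fits without 1 library called H2-M3, Irf1, Ifngr1, Jak2 and Hspa5, and 5 of them called Nfyb. The share of all genes called in each of these 6 fits is not given here. The corrected fit over all 6 libraries called 18.1% of all genes tested.

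None of the 20 proteasome core and activator genes, 6 cytosolic peptidases and 9 cross-presentation genes passed the threshold in edgeR or in DESeq2, whereas 3, 2 and 1 of them had an unadjusted edgeR p below 0.05. With the correction for GC content and length, edgeR called 2 of them higher and 3 lower, beside 10% and 8.13% of all genes tested. The former were the proteasome activator Psme3 (0.19, adjusted p = 0.00470) and the peptidase Nrdc (0.12, adjusted p = 0.0388), and the latter, all of the cross-presentation list, were the NADPH oxidase subunit Cybb (-0.28, adjusted p = 6.87e-05), the endosomal peptidase Lnpep (-0.24, adjusted p = 0.00237) and the SNARE protein Snap23 (-0.13, adjusted p = 0.0209). Among the corrected fits without 1 library, all 6 called Psme3, Cybb and Lnpep, 2 called Snap23 and 1 called Nrdc, and the share of all genes called in all 6 is not given here. The uncorrected log2 differences were -0.17 in Cybb (edgeR adjusted p = 0.145), -0.13 in Lnpep (0.472), -0.0070 in Snap23 (0.964) and 0.17 in Nrdc (0.144). Without the correction, the median log2 fold changes of the 3 lists were 0.0063, 0.06 and 0.02. In the proteasome list the inducible subunit Psmb10 had the lowest value at -0.35 (SE 0.13, edgeR adjusted p = 0.127), with 2303, 2979 and 3274 against 2244, 1988 and 2477 normalized counts, and the activator Psme3 the highest at 0.18 (adjusted p = 0.125). The peptidases ranged from -0.25 in Thop1 to 0.22 in Tpp2, and the cross-presentation genes from -0.19 in Wdfy4 to 0.11 in Sec22b.

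**Figure D5:**
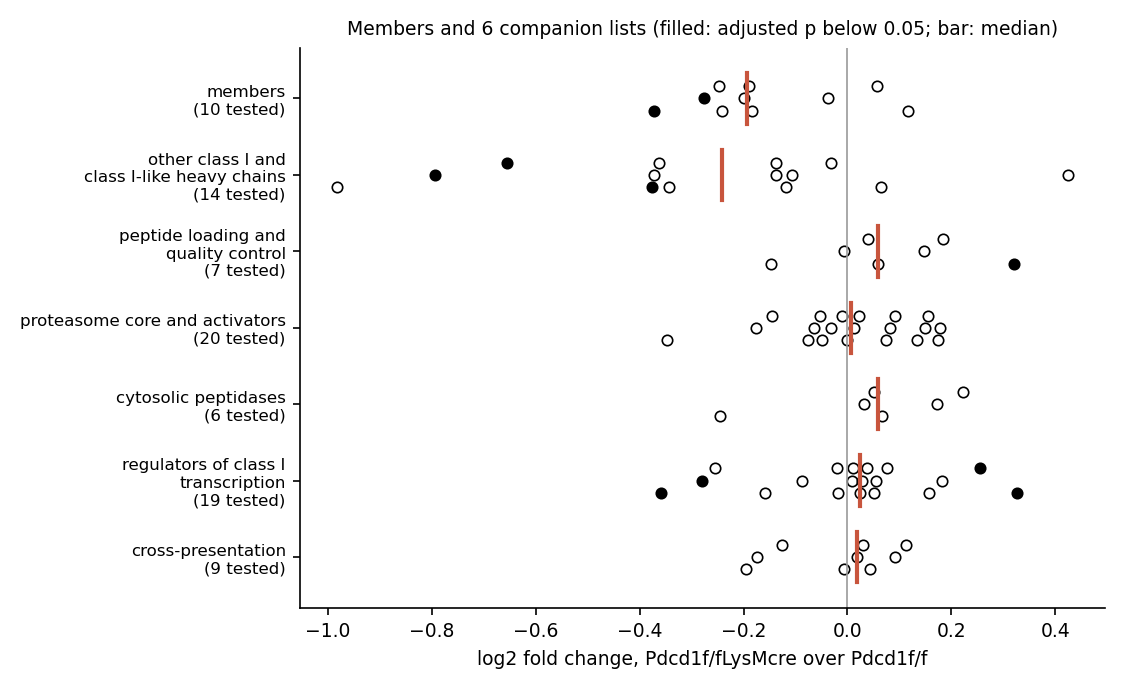
The log2 fold change of Pdcd1f/fLysMcre over Pdcd1f/f for the 10 members and the tested genes of 6 companion lists, 1 circle per gene, filled where the edgeR adjusted p was below 0.05, with a red bar at the median of each list. The members and the other class I and class I-like heavy chains have medians of -0.19 and -0.24, and the remaining lists have medians between 0.0063 and 0.06.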

How the data were processed

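Per the labels and the study's methods, stranded poly(A) libraries were sequenced as paired-end 42-nt reads, and the authors removed adapters with cutadapt (version 2.5), aligned reads to GRCm38 with STAR (2.7.3a) and counted them with featureCounts (Subread 1.6.2). The deposited raw counts per Ensembl gene were the input of all tests. A table of normalized signal was deposited too, in which each count is divided by the DESeq2 (1.24.0) size factor of its library. Columns of these 2 tables were matched to the 6 libraries by name and no column was left out.

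Raw counts were tested with edgeR (version 4.0.16, R 4.3.3): filterByExpr (minimum count of 10, minimum total of 15), TMM, glmQLFit with robust estimation, two-sided glmQLFTest, with p-values adjusted after Benjamini and Hochberg across 14469 tested genes and called at 0.05. The SE of a gene is its log2 fold change divided by the square root of F, and intervals are not adjusted for multiple tests. Alternatives were library size alone, RLE size factors, no low-count filter, a minimum of 10 counts in each library, DESeq2 (1.42.0), limma-trend (3.58.1) on log2(value + 1), the replicate number as a block, loess offsets (span 0.5) on gene length and GC content, alone or together with the block, and each library left out. Offsets with each library left out, Pdcd1f/f replicate 1 and Pdcd1f/fLysMcre replicate 2 left out together, and H2-K1 and H2-D1 added to each other were chosen after seeing the data. Ratios used exact permutation tests (scipy 1.17.1). Positions, lengths and GC content came from GENCODE M21 (GRCm38), which named 14454 of the genes tested, and promoter sequences from RefSeq (GRCm38.p6).

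The members and lists were chosen with earlier results of these data known. The text names all members, the genes past the threshold and the extremes of each companion list, the genes of the ratios, and the 5 genes most alike in pattern. H2-Q4, H2-Q7, H2-T23, Nrdc, Cybb, Lnpep, Snap23 and Rela were named after their values were seen, and some genes of the lists are not reported by name here. On counts simulated for this comparison over 14264 genes, edgeR called 87 of 100 genes changed by 0.5 and 100 of 100 changed by 1 on the log2 scale, with 8 false calls. The simulated counts had a common dispersion for all genes and no GC-linked shift between libraries, unlike the data. Libraries of a genotype differed by more than sampling noise, and none was counted as a repeat.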

Additional observations from a re-analysis of the deposited data

How the results depend on the processing

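Of the 10 members, 2 passed the threshold in edgeR, DESeq2 and limma-trend, with RLE size factors, with library size alone, with at least 10 counts in every library and with the replicate block, 3 passed with the GC and length offsets, alone or together with the block, and 4 passed over all genes with a count. Leaving out 1 library gave 0 to 7 members, the 7 being without Pdcd1f/f replicate 1, where 21.6% of all genes were called. With the offsets it gave 2 to 6. The 6, without Pdcd1f/f replicate 1, were 5 lower and Tapbp higher, beside 22.6% of all genes called. Leaving out Pdcd1f/f replicate 1 and Pdcd1f/fLysMcre replicate 2 together gave 7, beside 26.2% of all genes called. Of the companion genes, 8 passed, beside 5.43% of all genes. Over all genes with a count 14 passed (beside 7.32%), in DESeq2 13 (12.8%), with the offsets 17 (18.1%) and with the offsets and the block 20. Leaving out 1 library gave 2 to 21, with the offsets 12, 13, 14, 14, 15 and 22, and leaving out both libraries gave 25. Without Pdcd1f/f replicate 1, 8 companions were higher and 13 lower, beside 21.6% of all genes called. Among the fits with libraries left out, shares over all genes are given here only where Pdcd1f/f replicate 1 was left out. None is given for the offsets with the block. Counts of companions without such a share cannot be read as particular to these genes. The summed class I feature, which was not run with DESeq2, limma-trend or the offsets, kept its direction, was called over all genes with a count (-0.25, adjusted p = 0.00128 in edgeR), and ranged from -0.35 to -0.18 without 1 library, where it was called without Pdcd1f/f replicate 1.

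Directions of differences turned. With the offsets, without and with the block, B2m was at -0.0025 and -0.0020, Tapbp at 0.10 in each, Psmb5 at 0.0157 and 0.0199 and Rela at 0.161 in each (adjusted p = 0.0213 and 0.0117 in edgeR). With the offsets and 1 library left out, B2m ranged down to -0.0392, with other values of -0.0013 and -0.0283, Tapbp from 0.0851 to 0.116 (0.113 without Pdcd1f/fLysMcre replicate 3) and Erap1 was at -0.0154, -0.00046, -0.0050 and -0.0051. Without offsets, Tapbp ranged from -0.11 to 0.0264 without 1 library, Rela from -0.109 to 0.0375 and Snap23 from -0.0733 to 0.0384, and the log2 ratios of Psmb8 to Psmb5, H2-K1 to H2-D1 and Tap1 to Tap2 from -0.0639 to 0.0453, -0.0206 to 0.0265 and -0.0349 to 0.0615. The cause of these changes was not tested.

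Whether replicate numbers pair the libraries was checked by the correlation of same-numbered deviations from the group means, which was -0.01, -0.09 and 0.20. Differently numbered libraries gave -0.24 to 0.22. With 3 libraries for each genotype, and with GC-linked shifts in these deviations, the check cannot decide whether the numbers pair the libraries. With the replicate block, edgeR called 1027 genes in place of 786, H2-K1 had an adjusted p of 0.0869, Nlrc5 of 0.0434 and Psmb9 of 0.0208, and the block changed no member's call. The count over all genes was 1599 of 12505 in DESeq2, 2626 with the offsets, 1951 of 26637 over all genes with a count, 3181 without Pdcd1f/f replicate 1 and 3757 without both libraries. With 3 libraries for each genotype, a change of 0.5 on the log2 scale was recovered in simulation in 87 of 100 genes, and the uncalled members' differences were smaller than this. The simulation held no GC-linked shift between libraries, so this share need not hold for the members.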

Other observations

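The 5 tested genes whose pattern over the 6 libraries was most like the mean pattern of the 10 members, among 10592 other genes with a mean of at least 100 normalized counts, were Wdr90, Zmynd15, Ptpn1, Psmb10 and Pfkl. Pearson's r between their log2(normalized count + 1) and the centred mean of the members was 0.999 for each. As many as 783 of the 10592 genes had an r above 0.95, and the 5 genes have a GC content of 55.5% to 58.0%. All 5 had a negative log2 fold change, from -0.18 in Ptpn1 to -0.35 in Psmb10, and none was past the threshold in edgeR (adjusted p from 0.115 to 0.191).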
